A study of Caenorhabditis elegans with 15 samples.

Results

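The pho genes of Caenorhabditis elegans encode acid phosphatases of the histidine acid phosphatase family, and 10 of them were followed here: pho-1, pho-5, pho-6, pho-7, pho-8, pho-9, pho-11, pho-12, pho-13 and pho-14. They are a list of names whose RefSeq symbols were matched to the locus tags of the count table, and are 10 of the 46929 genes in it. The list does not hold every pho gene of the table, since pho-4 and pho-10 are not on it. F21A3.11, the gene called ACP7 that the study overexpressed, is not one of the 10 either. The ACP7 OE worms (strain ABR275, 5 libraries) carry F21A3.11 behind the promoter of the gut esterase gene ges-1, followed by a trans-spliced WormScarlet reporter and the unc-54 3'UTR. The ACP7-7A OE worms (strain ABR484, 5 libraries) carry that construct with F21A3.11-7A, which the labels call catalytically dead. The wild-type worms are strain N2 (5 libraries). The labels give 1 strain for each construct, so that a strain and its construct cannot be told apart, and the labels used here say nothing of age, sex or stage. Each library held poly(A) RNA of about 1000 whole worms. Since nothing says that libraries of a group came from separate cultures, the p-values measure the spread between these libraries, which may be technical. In whole-worm RNA, fewer cells of a type and less RNA per cell cannot be told apart.

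Histidine acid phosphatases use a histidine in the active site to remove phosphate groups from their substrates at low pH. pho-1 encodes the best known worm member, the acid phosphatase of the intestine, which has long served as a marker of gut differentiation and is a target of the intestinal GATA factor ELT-2. Its product lies at the luminal side of gut cells, and mothers without it produce embryos that arrest. F21A3.11 belongs to a different enzyme class, the purple acid phosphatases, which hold a pair of metal ions in the active site. The comparisons ask whether the worm's own acid phosphatase transcripts differ where a further, secreted phosphatase is made by the gut, and whether the same is seen with the inactive form.

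Library totals ran from 39050495 to 58077047 counts. F21A3.11 had 610 ± 29.8 TMM-scaled CPM (counts relative to the library's size) in ACP7 OE, 1360 ± 229 CPM in ACP7-7A OE and 15 ± 1.52 CPM in wild type (SD, n = 5 each), so both overexpression labels held. Reads of the construct and of the worms' own F21A3.11 are counted together. Its level also differed between the constructs, by a log2 fold change of -1.16 for ACP7 OE against ACP7-7A OE (SE 0.09, edgeR adjusted p = 1.4e-07). Whole worms hold all tissues, and the intestine was present: none of 19 intestine markers was at 0 in any library. The median of these markers ranged over 7.44 to 7.77 log2 CPM in ACP7 OE, 6.87 to 7.12 in ACP7-7A OE and 6.84 to 7.57 in wild type. Wild-type library 5, at 6.84, stood apart from the other wild-type libraries, at 7.35 to 7.57. ACP7-7A OE libraries 1 and 2 stood apart in the sperm markers, with medians of 0.87 and 0.84 log2 CPM against 2.91 to 3.08 in libraries 3 to 5.

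The 10 genes lie on 4 chromosomes, with 5 on chromosome II (pho-1, pho-11, pho-12, pho-13 and pho-14), 2 on III (pho-5 and pho-9), 2 on V (pho-6 and pho-8) and 1 on X (pho-7). No pair of them is adjacent. The closest pair, pho-12 and pho-1, is separated by 172336 bp. pho-1 (WBcel235, chromosome II, 5233156 to 5235846, minus strand) does have a family member as its neighbour, pho-4, which lies 410 bp upstream on the same strand and is not among the 10. The genes are alike in size, with 1292 to 1571 exon bases, but differ in their number of exons, from 4 in pho-9 to 11 in pho-1. In 5 of the 10, between 34 and 120 exon bases are shared with a protein-coding gene on the other strand, and reads there cannot be assigned without strand information. The share is 7.94% of the exon bases in pho-1 (with EGAP2.1), 5.33% in pho-6 (with gcy-7), 3.5% in pho-13 (with appg-2), 3.07% in pho-5 (with B0361.3) and 2.57% in pho-11 (with C05C10.3).

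Levels are compared between genes as TPM, which divides counts by exon length and scales every library to the same sum. pho-11 (chromosome II, 9931849 to 9934431, plus strand) was the most abundant of the 10 in every library, at 108 to 188 TPM. Its mean of 158 TPM over the 15 libraries was higher than that of 93.8% of the genes tested and 2.84 times that of pho-1, the next in order. A histidine acid phosphatase gene outside the 10, acp-6, was more abundant than pho-11 in every group. It had 471 ± 26.9 TPM in ACP7 OE, 508 ± 66.4 TPM in ACP7-7A OE and 533 ± 63.5 TPM in wild type (SD, n = 5 each). pho-1 ranged from 39.9 to 67.2 TPM, pho-14 from 35.7 to 55.2 TPM and pho-5 from 38.5 to 47.7 TPM. The order of these genes was not the same in all libraries: pho-1 exceeded pho-14 in 12 of 15, and pho-14 exceeded pho-5 in 8 of 15. pho-13 (10.7 to 21.9 TPM) and pho-9 (10.7 to 17.1 TPM) formed a lower level, and they too overlapped, with pho-13 above pho-9 in 11 of 15 libraries. pho-7 followed at 3.28 to 8.33 TPM and did not overlap with either neighbour in the order.

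The remaining members were scarce. pho-8 ranged from 0.747 to 2.74 TPM, pho-12 from 0.244 to 1.82 TPM and pho-6 from 0 to 0.829 TPM. pho-6 rested on 0 to 37 counts in a library. Its library with 0 counts (ACP7-7A OE library 2) allows up to 3 counts, or 0.062 CPM, if counts are independent. The bound is higher if the mates of a pair were counted separately. The levels of these scarce members also varied between libraries of a group, and their intervals below are wide. The coefficient of variation in a group was 34.4% to 44.4% for pho-8, 32.2% to 45.6% for pho-12 and 34.4% to 93% for pho-6.

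**Figure D1:**
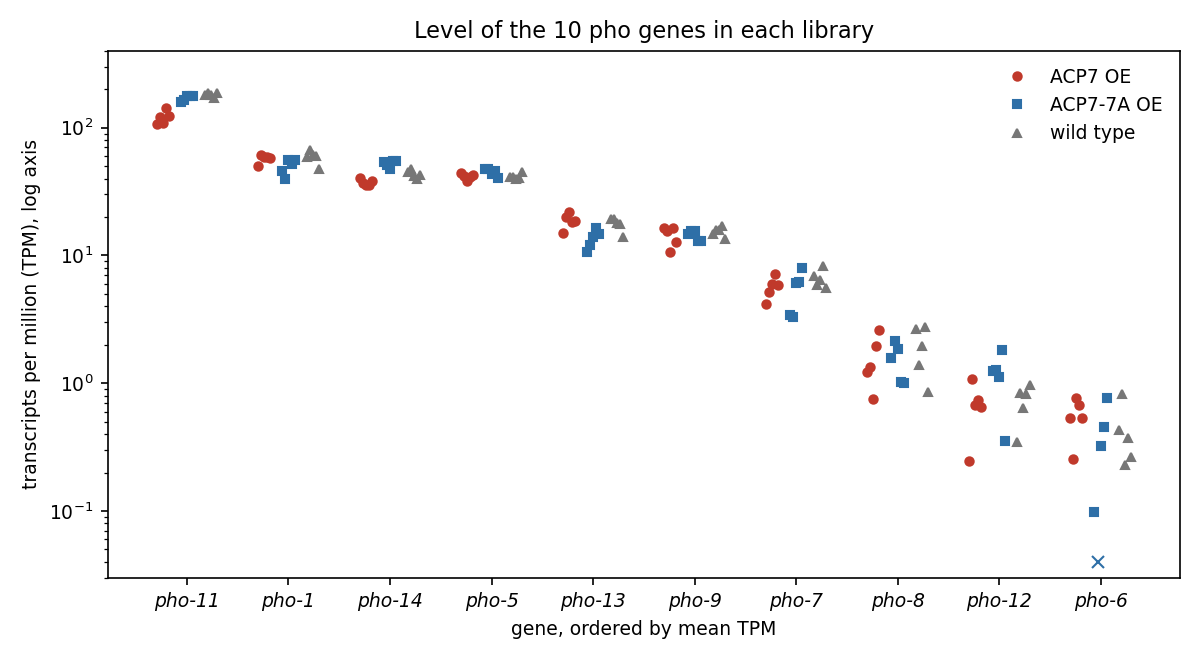
Level of each of the 10 pho genes in TPM (log axis) in each library, with ACP7 OE as red circles, ACP7-7A OE as blue squares and wild type as grey triangles; the blue cross marks the library with 0 counts of pho-6, drawn at the foot of the axis. Genes are ordered by mean TPM, and pho-11 lies above all others while the ACP7 OE libraries of that gene lie below the other groups.

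The summed level of the 10 genes was 299 ± 17.4 TPM in ACP7 OE, 355 ± 15 TPM in ACP7-7A OE and 368 ± 11.9 TPM in wild type (SD, n = 5 each). pho-11 held 40.3% ± 2.22 of that sum in ACP7 OE, 48.2% ± 0.747 in ACP7-7A OE and 49.3% ± 1.93 in wild type. pho-1 held 19.2% ± 1.17, 14.1% ± 1.51 and 16% ± 1.61 of it in ACP7 OE, ACP7-7A OE and wild type. These sums are given as a description and were not tested.

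Against wild type, 1 of the 10 genes passed the test in ACP7 OE, and it was the most abundant one. pho-11 fell by 33.3%, while 9 members did not pass (edgeR's quasi-likelihood test, with p-values adjusted by Benjamini-Hochberg over all genes tested and a threshold of 0.05). Over all 15725 genes tested, 2.68% passed in this comparison: 1.48% of all genes tested were higher and 1.2% lower. All 10 members had enough counts to be tested. Their median log2 fold change was -0.09, against 0 for all genes tested, and 7 of the 10 values were negative.

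pho-11 had 109.9, 118, 104.7, 137 and 117 CPM in ACP7 OE libraries 1 to 5. It had 175, 183, 179.8, 163 and 179 CPM in wild-type libraries 1 to 5. Every ACP7 OE library lay below every wild-type library, and the groups of 6.73% of all genes tested did not overlap in this comparison. The mean was 117 ± 12.3 CPM in ACP7 OE and 176 ± 7.93 CPM in wild type (SD, n = 5 each), a log2 fold change of -0.58 (SE 0.06, 95% interval -0.71 to -0.45, edgeR adjusted p = 1.2e-06). The adjusted p stayed between 2.9e-14 and 5.3e-05 over 26 alternatives, and the log2 fold change between -0.66 and -0.53. C05C10.3, which shares 34 exon bases with pho-11 on the other strand, averaged 186 ± 5.71 CPM in ACP7 OE and 205 ± 7.73 CPM in wild type. Its groups did not overlap either, but it did not pass (log2 fold change -0.14, adjusted p = 0.13).

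pho-14 (chromosome II, 1097927 to 1100819, minus strand) was close to the threshold in the same direction. It had 42.7, 37.0, 35.4, 35.7 and 37.9 CPM in ACP7 OE libraries 1 to 5, and 45.6, 48.1, 43.2, 39.7 and 42 CPM in wild-type libraries 1 to 5. ACP7 OE library 1 overlapped with wild type, and the other 4 lay below all wild-type libraries. The log2 fold change was -0.21 (SE 0.07, 95% interval -0.36 to -0.06, edgeR adjusted p = 0.13). It passed without ACP7 OE library 1 (adjusted p = 0.048), within a range of 0.02 to 0.31 over the alternatives.

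The intervals of the other members all included 0. For pho-1, the intestinal acid phosphatase, the log2 fold change was -0.04 (95% interval -0.22 to 0.14), for pho-5 it was 0.01 (-0.13 to 0.15), for pho-13 it was 0.10 (-0.14 to 0.34) and for pho-9 it was -0.09 (-0.34 to 0.16). These intervals leave out a change of the size measured for pho-11. For pho-7 the interval was -0.66 to 0.20, for pho-8 -1.01 to 0.43, for pho-12 -0.97 to 0.78 and for pho-6 -0.98 to 1.75, so that for the last 4 the interval includes a change of that size.

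Some tissue markers differed between these groups too, where 2.68% of all genes tested passed. A single call in a short list cannot be told from that share. Of 11 sperm markers tested, 1 rose in ACP7 OE against wild type (spe-42, log2 fold change 3.20, adjusted p = 0.039), 0 fell and 10 did not pass. In this sperm list 6 had an unadjusted p under 0.05 in edgeR's test, and DESeq2 called 2 higher and 0 lower. The median of the list was 0.94, and its summed level of 89.5 to 115 CPM in ACP7 OE did not overlap with 66.3 to 70.7 CPM in wild type. The groups of 6.73% of all single genes tested did not overlap either. Of 7 pharynx markers 1 fell, pha-4, with a list median log2 fold change of -0.41 and median levels of 3.37 to 4.14 log2 CPM in ACP7 OE and 3.64 to 4.41 log2 CPM in wild type. Among the pharynx markers 4 had an unadjusted p under 0.05 in edgeR's test, and DESeq2 called 1 lower and 0 higher. For 8 body wall muscle markers the median was -0.33, with summed levels of 1970 to 2710 CPM in ACP7 OE and 2120 to 2990 CPM in wild type; 0 passed edgeR's test, 4 had an unadjusted p under 0.05 and DESeq2 called 0. Of the 19 intestine markers 0 passed edgeR's test, 3 had an unadjusted p under 0.05 and DESeq2 called 2, with a median of 0.01. The part of these markers in the pho-11 value was not tested.

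**Figure D2:**
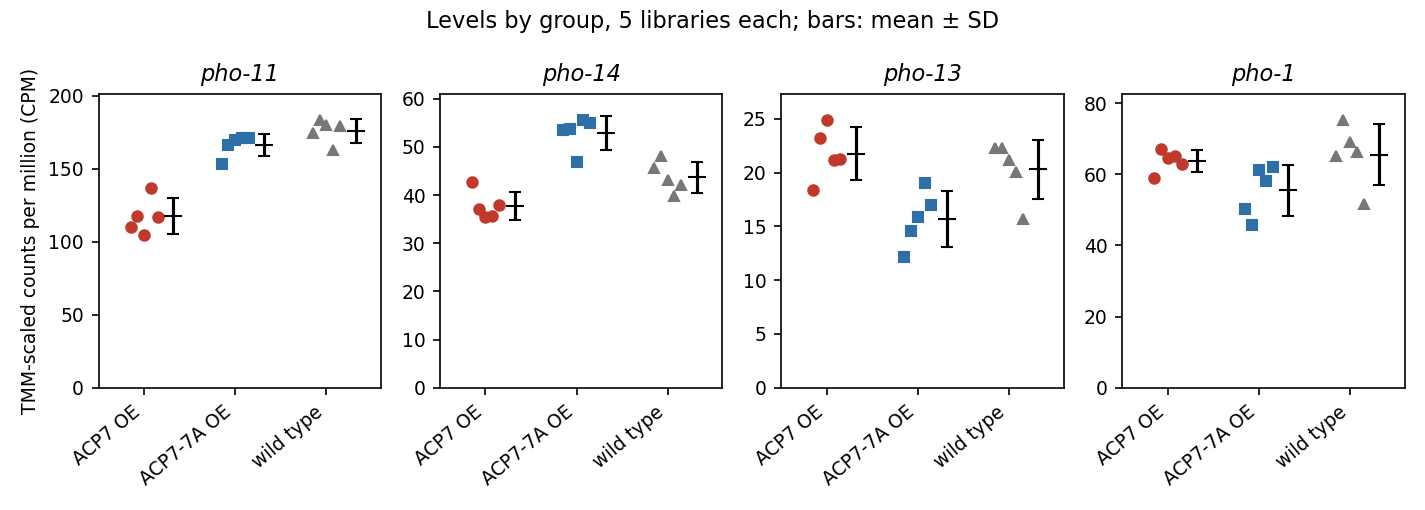
CPM of pho-11, pho-14, pho-13 and pho-1 in the 5 libraries of ACP7 OE, ACP7-7A OE and wild type, with the mean and SD of each group as a black bar; every vertical axis starts at 0. The pho-11 libraries of ACP7 OE lie between 104.7 and 137 CPM, below all libraries of the other groups, and the pho-14 libraries of ACP7 OE lie below all of ACP7-7A OE.

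Against wild type, the inactive construct gave another picture: pho-11 did not pass and pho-14 rose. In ACP7-7A OE 1 of the 10 genes passed, against 6.86% of all genes tested. Of all genes tested, 2.66% passed as higher and 4.2% as lower. None of the 10 had groups that did not overlap, against 5.04% of all genes tested. The median log2 fold change of the members was -0.17, against 0 for all genes tested.

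pho-11 had 153, 166, 170.1, 171 and 171 CPM in ACP7-7A OE libraries 1 to 5, a mean of 166 ± 7.47 CPM against 176 ± 7.93 CPM in wild type (SD, n = 5 each). The log2 fold change was -0.08 (SE 0.06, 95% interval -0.21 to 0.05, edgeR adjusted p = 0.46). Library 1 lay below all wild-type libraries and the other 4 lay among them.

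pho-14 had 53.5, 53.6, 46.8, 55.5 and 54.9 CPM in ACP7-7A OE libraries 1 to 5. Of these, 4 lay above the highest wild-type library, and library 3 lay within the wild-type range of 39.7 to 48.1 CPM. pho-14 rose by 20.9% (log2 fold change 0.27, SE 0.07, 95% interval 0.13 to 0.42, edgeR adjusted p = 0.025). The call did not hold without wild-type library 1, 3 or 4 (adjusted p = 0.050, 0.067 and 0.090) or without ACP7-7A OE libraries 1 and 2 together (adjusted p = 0.054), within a range of 0.002 to 0.09 over the alternatives.

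pho-13 (chromosome II, 8804835 to 8807021, minus strand) and pho-1 were lower in ACP7-7A OE without passing. pho-13 averaged 15.7 ± 2.57 CPM in ACP7-7A OE and 20.3 ± 2.74 CPM in wild type (log2 fold change -0.37, SE 0.12, edgeR adjusted p = 0.057). pho-1 averaged 55.5 ± 7.13 CPM in ACP7-7A OE and 65.5 ± 8.59 CPM in wild type (log2 fold change -0.24, SE 0.09, edgeR adjusted p = 0.11; SD, n = 5 each). Wild-type library 5, at 51.8 CPM of pho-1 and 15.7 CPM of pho-13, was the lowest wild-type library for both genes, and without it pho-1 and pho-13 passed (adjusted p = 0.012 and 0.0096). pho-13 also passed without ACP7 OE library 1 or ACP7-7A OE library 4 (adjusted p = 0.043 and 0.028). With all libraries kept, it passed with DESeq2 (adjusted p = 0.034) and with edgeR without a filter on low counts (adjusted p = 0.04). Over the alternatives the adjusted p of pho-1 ran from 0.012 to 0.73 and that of pho-13 from 0.0096 to 0.63.

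Tissue markers differed in the same comparison too, where 6.86% of all genes tested passed, 2.66% higher and 4.2% lower. A single call in a short list cannot be told from that share. Of 19 intestine markers, 4 fell in ACP7-7A OE against wild type, 0 rose and 15 did not pass, with a median log2 fold change of -0.21. At an unadjusted p under 0.05 there were 10, and DESeq2 called 8 lower and 0 higher. Among them were cpr-6, a cathepsin B-like protease gene (-0.24, adjusted p = 0.019), and ifd-2, an intestinal intermediate filament gene (-0.80, adjusted p = 0.0015). The summed level of the list was 42600 to 52600 CPM in ACP7-7A OE and 44800 to 49800 CPM in wild type. Of 13 germline and oocyte markers, 5 rose, 0 fell and 8 did not pass, with a median of 0.24 and summed levels of 10800 to 13900 CPM in ACP7-7A OE and 9420 to 11600 CPM in wild type. At an unadjusted p under 0.05 there were 11, and DESeq2 called 9 higher and 0 lower. Of 9 hypodermis markers, 2 fell, the collagen genes dpy-7 (-0.77, adjusted p = 0.0035) and sqt-3 (-0.59, adjusted p = 0.034), 0 rose and 7 did not pass, and DESeq2 called 3 lower; the summed level was 1790 to 3260 CPM in ACP7-7A OE and 2350 to 3560 CPM in wild type, and 1 marker was at 0 in ACP7-7A OE library 1. Of 11 sperm markers 1 rose, spe-41 (0.34, adjusted p = 0.043), with summed levels of 57.8 to 99.3 CPM in ACP7-7A OE and 66.3 to 70.7 CPM in wild type. The part of these markers in the pho values was not tested. With libraries scaled to the intestine markers, a setting chosen after seeing the data, the median of all genes in this comparison shifted by 0.28. On that scale pho-1 stood at 0.05, pho-13 at -0.08, pho-11 at 0.20 and pho-14 at 0.56 (adjusted p = 0.73, 0.63, 0.12 and 0.002), so the signs of pho-1 and pho-11 turned. Relative to the median of all genes, pho-1, pho-13 and pho-11 remained lower on it.

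Set directly against each other, the strains differed in 3 of the 10 genes, against 8.56% of all genes tested. pho-11 and pho-14 were lower in the ACP7 OE worms than in ACP7-7A OE, and pho-13 was higher. Of all genes tested, 3.76% passed in the lower and 4.79% in the higher direction. The comparison tests whether the effects of the constructs differ, since both are set against the same wild-type libraries above. The median log2 fold change of the members was 0.02, against 0 for all genes tested.

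pho-11 averaged 117 ± 12.3 CPM in ACP7 OE against 166 ± 7.47 CPM in ACP7-7A OE (n = 5 each, SD), with no overlap between the groups. The log2 fold change was -0.50 (SE 0.06, 95% interval -0.63 to -0.37, edgeR adjusted p = 9.2e-06). pho-14 averaged 37.8 ± 2.96 CPM in ACP7 OE against 52.9 ± 3.50 CPM in ACP7-7A OE, and here too every ACP7 OE library lay below every ACP7-7A OE library. Its log2 fold change was -0.49 (SE 0.07, 95% interval -0.63 to -0.34, edgeR adjusted p = 9.1e-05). Both calls held under all 26 alternatives, with adjusted p from 5e-11 to 0.00015 for pho-11 and from 8.3e-09 to 0.00056 for pho-14. The groups of 7.08% of all genes tested did not overlap in this comparison.

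pho-13 had 18.3, 23.2, 24.9, 21.1 and 21.3 CPM in ACP7 OE libraries 1 to 5, and 12.2, 14.5, 15.8, 19 and 16.9 CPM in ACP7-7A OE libraries 1 to 5. The groups overlapped in 1 library of each. The log2 fold change was 0.47 (SE 0.12, 95% interval 0.23 to 0.71, edgeR adjusted p = 0.013). It did not pass without ACP7 OE library 3 (adjusted p = 0.057) or without ACP7-7A OE libraries 1 and 2 together (adjusted p = 0.091), within a range of 0.0032 to 0.37 over the alternatives.

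The intestine markers moved here as well: 5 of 19 were higher in the ACP7 OE worms than in ACP7-7A OE, 0 were lower and 14 did not pass, with a median log2 fold change of 0.30. At an unadjusted p under 0.05 there were 12, and DESeq2 called 8 higher and 0 lower. Their summed level was 45600 to 52800 CPM in ACP7 OE against 42600 to 52600 CPM in ACP7-7A OE. ges-1, whose promoter drives the constructs, was among the higher ones (0.35, adjusted p = 0.0042). Of 13 germline and oocyte markers, 2 were lower, mex-5 and cpg-1 (-0.28 each, adjusted p = 0.029 and 0.0092), with a list median of -0.14 and summed levels of 10100 to 12200 CPM in ACP7 OE against 10800 to 13900 CPM in ACP7-7A OE. Of 8 body wall muscle markers 1 was lower, unc-89 (-0.75, adjusted p = 0.013), and DESeq2 called 4 lower, with a median of -0.41 and summed levels of 1970 to 2710 CPM in ACP7 OE against 2000 to 3600 CPM in ACP7-7A OE. Of 9 hypodermis markers 1 passed, dpy-7, which was higher (0.65, edgeR adjusted p = 0.0064). Of 11 sperm markers 1 passed, spe-41, which was lower (-0.35, edgeR adjusted p = 0.033). A single call in a short list cannot be told from the 8.56% of all genes tested that passed. The part of these markers in the pho values was not tested. Scaled to the intestine markers, the log2 fold change of pho-13 was 0.13 (edgeR adjusted p = 0.37). On that scale pho-11 stood at -0.86 and pho-14 at -0.84 (edgeR adjusted p = 4.1e-07 and 3e-06). That scaling shifted the median of all genes by -0.36, and relative to it pho-11 and pho-14 remained lower and pho-13 higher. It left 334 genes higher and 7061 lower, against 754 higher and 592 lower with TMM scaling.

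pho-1 averaged 63.8 ± 3.15 CPM in ACP7 OE against 55.5 ± 7.13 CPM in ACP7-7A OE and did not pass (log2 fold change 0.20, 95% interval 0.02 to 0.38, edgeR adjusted p = 0.18). Scaled to the intestine markers it stood at -0.15. Of the scarce members, pho-12 had the widest separation, with 0.71 ± 0.309 CPM in ACP7 OE against 1.22 ± 0.555 CPM in ACP7-7A OE, and did not pass (-0.78, 95% interval -1.64 to 0.08, adjusted p = 0.27). pho-5, pho-7, pho-8 and pho-9 had log2 fold changes between -0.10 and 0.07 with TMM scaling, and pho-6 had 0.76 (95% interval -0.61 to 2.14).

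**Figure D3:**
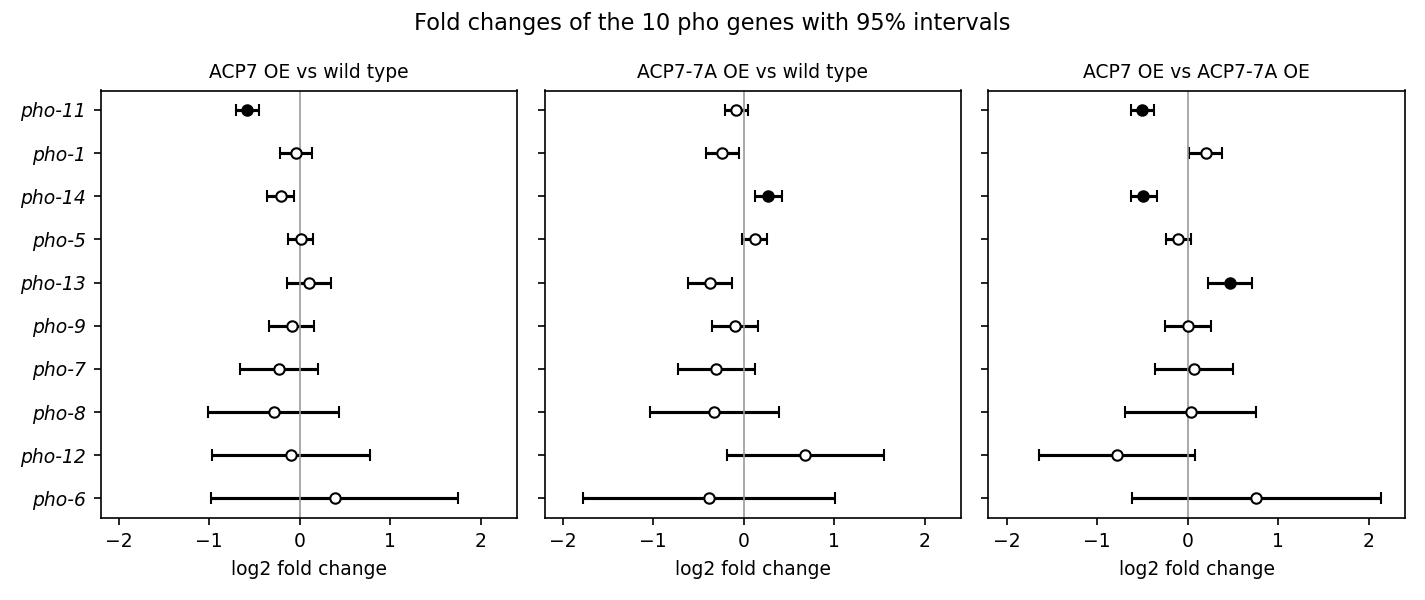
Log2 fold change of each of the 10 pho genes with its 95% interval in the 3 comparisons; filled points passed the edgeR test at an adjusted p under 0.05. pho-11 lies left of 0 in both comparisons of ACP7 OE, pho-14 lies right of 0 in ACP7-7A OE against wild type and left of 0 in ACP7 OE against ACP7-7A OE, and the intervals widen towards the scarce genes at the foot.

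Over the 15 libraries, the levels of several members went with those of the germline markers. The level of pho-1 was lower where the median of the germline and oocyte markers was higher (Pearson r = -0.86, permutation p = 6e-05, adjusted p = 0.0032; Spearman rho = -0.83, p = 0.00022, adjusted p = 0.018). pho-7 did likewise (r = -0.81, permutation p = 0.00023, adjusted p = 0.0046; rho = -0.75, p = 0.0019, adjusted p = 0.038). pho-5 went the other way and was higher where those markers were higher (r = 0.82, permutation p = 0.00021, adjusted p = 0.0046; rho = 0.78, p = 0.00082, adjusted p = 0.023). Without the 2 libraries farthest from the median of the markers, r was -0.69 for pho-1, -0.60 for pho-7 and 0.63 for pho-5. With the mean of each group removed it was -0.79, -0.80 and 0.75. The highest marker medians, 9.79 to 9.98 log2 CPM, were in ACP7 OE library 1, wild-type library 5 and ACP7-7A OE libraries 1 and 2. In these pho-1 had 58.9, 51.8, 50.3 and 45.8 CPM, low values within each group. Among wild-type libraries 1 to 4, pho-1 was highest, at 75.2 CPM, where the marker median was highest, at 9.62. Whether the relations hold without all of the libraries with the highest medians was not tested. The p-values are adjusted over 80 relations, of 10 genes with 8 marker lists, and 7 passed by Pearson's r. They come from permuting all 15 libraries without regard to group, so differences between the groups enter them. The values of r with group means removed were not tested. All levels in a library share its scaling, and whether that alone gives such relations was not tested.

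The intestine markers divided the libraries into 2 sets, so no r over all libraries is given for them. The set with medians of 6.84 to 7.12 log2 CPM held the 5 ACP7-7A OE libraries and wild-type library 5, and the set with 7.35 to 7.77 held the 5 ACP7 OE libraries and the 4 other wild-type libraries. pho-13 was correlated with these markers by r = 0.71 within the set of 6 and r = 0.09 within the set of 9. The exact permutation p of r was 0.099 and 0.81, and rho, which was not tested here, was 0.71 and 0.13. For pho-11 r was 0.15 and -0.21 (exact permutation p of r = 0.78 and 0.60), with rho of 0.03 and -0.10. For pho-14 r was 0.62 and -0.31 (exact permutation p of r = 0.17 and 0.42), with rho of 0.94 and -0.15. For pho-1 r was 0.43 and -0.09 (exact permutation p of r = 0.41 and 0.81), with rho of 0.37 and -0.28. The marker medians of the set of 9 were 7.44 to 7.77 in ACP7 OE and 7.35 to 7.57 in wild type.

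**Figure D4:**
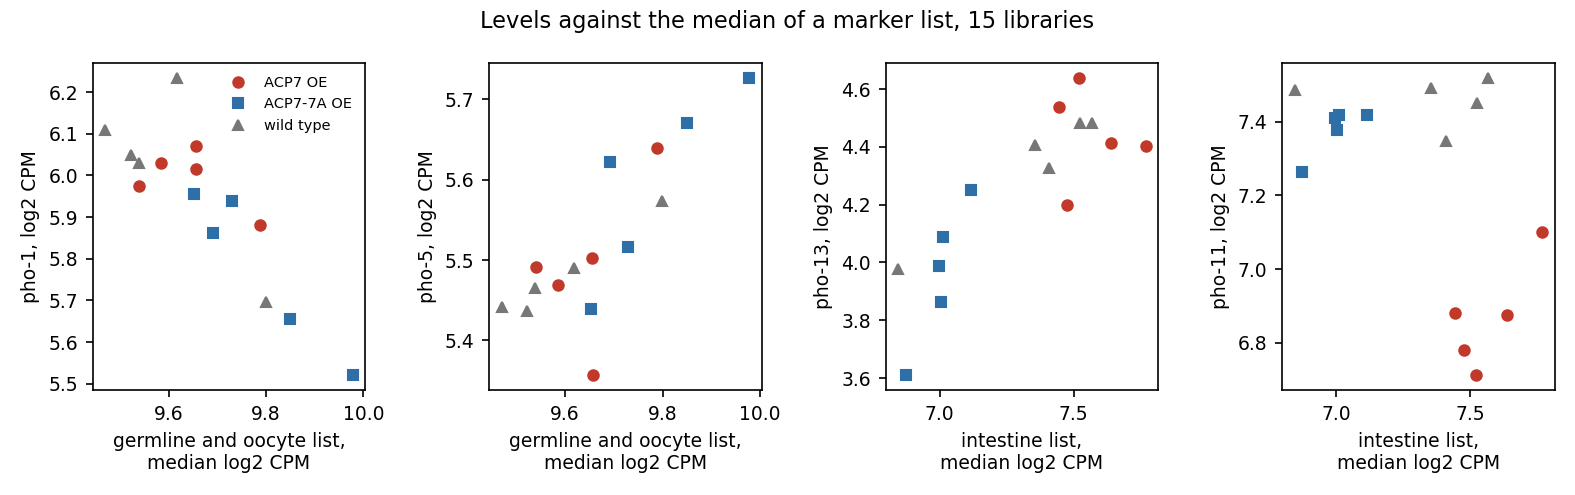
Log2 CPM of pho-1 and pho-5 against the median log2 CPM of the germline and oocyte markers, and of pho-13 and pho-11 against that of the intestine markers, 1 point per library in the colours of the groups. pho-1 falls and pho-5 rises along the germline axis, the intestine axis shows a gap between 7.12 and 7.35, and the ACP7 OE points of pho-11 lie below all others.

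Genes with the most similar pattern were found by the Pearson correlation of log2 CPM over the 15 libraries, group differences included. Since they were chosen on these libraries, their fold changes restate the choice and are given as a description with no test. For pho-11 they were F56A4.2 (r = 0.941), F56A4.3 (r = 0.937) and B0395.3 (r = 0.935). Their log2 fold changes in ACP7 OE against wild type were -1.27, -2.80 and -0.36. F56A4.3 differed most from pho-11 once group means were removed (r = 0.11), where F56A4.2 and B0395.3 kept r = 0.76 and 0.66. For pho-14 they were Y53H1B.2 (r = 0.961), F37H8.5 (r = 0.950) and perm-2, an eggshell gene (r = 0.925), with log2 fold changes of -0.58, -0.41 and -0.40 between the constructs. For pho-13 they were the nuclear hormone receptor gene nhr-114 (r = 0.949), pals-23 (r = 0.943) and F07H5.3 (r = 0.935), which lies 19322 bp from pho-13. Between the constructs these had log2 fold changes of 0.57, 0.42 and 0.26.

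Of the 8 other histidine acid phosphatase genes in the table (pho-4, pho-10 and acp-1 to acp-6), 6 were tested, too few for their counts to be told from the 2.68%, 6.86% and 8.56% of all genes that passed in the 3 comparisons. In ACP7 OE against wild type 0 of the 6 passed edgeR's test, 0 had an unadjusted p under 0.05 and DESeq2 called 0, with a median log2 fold change of -0.23. In ACP7-7A OE against wild type 1 fell, acp-5, with 6.12 ± 0.360 CPM in ACP7-7A OE and 8.27 ± 0.494 CPM in wild type (SD, n = 5 each; log2 fold change -0.43, edgeR adjusted p = 0.037), and 5 did not pass, with a median of -0.18. Between the constructs 0 of the 6 passed edgeR's test, 0 had an unadjusted p under 0.05 and DESeq2 called 0. pho-4, the neighbour of pho-1, averaged 4.00 ± 1.09 CPM in ACP7 OE, 5.42 ± 1.85 CPM in ACP7-7A OE and 5.3 ± 1.5 CPM in wild type and passed in no comparison (adjusted p = 0.43 for ACP7 OE and 0.96 for ACP7-7A OE against wild type, and 0.30 between the constructs). pho-10, which lies near pho-11 with C05C10.2 between them, was below the filter, with 27 counts over the ACP7 OE libraries, 40 over ACP7-7A OE and 82 over wild type. Without the filter its log2 fold change in ACP7 OE against wild type was -1.76 (SE 0.79, edgeR adjusted p = 0.30).

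Of the purple acid phosphatase relatives of F21A3.11 listed, 2 were tested. Y105C5B.15 fell in ACP7-7A OE against wild type (log2 fold change -0.37, edgeR adjusted p = 0.0025) and was higher in the ACP7 OE worms than in ACP7-7A OE (0.23, adjusted p = 0.027), while F02E9.7 passed in no comparison. Of 12 tested transcription factor genes active in the intestine, 1 passed in ACP7 OE against wild type. It was pha-4, which is also on the pharynx list and fell (-0.43, edgeR adjusted p = 0.041). Between the constructs 1 of the 12 passed, pqm-1, which was higher in the ACP7 OE worms (0.35, edgeR adjusted p = 0.024). Over all genes tested, 2.68%, 6.86% and 8.56% passed in the 3 comparisons. Both lists are too short for their counts to be told from these shares. In ACP7-7A OE against wild type 0 of the 12 passed edgeR's test, 3 had an unadjusted p under 0.05 and DESeq2 called 0. elt-2, the GATA factor gene, had log2 fold changes against wild type of 0.18 in ACP7 OE worms and -0.17 in ACP7-7A OE worms and did not pass (adjusted p = 0.51 and 0.43).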

How the data were processed

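Poly(A) RNA of 15 libraries in 3 groups of 5 was sequenced as read pairs of 150 nucleotides. The authors deposited 1 table of raw counts per gene, and per the file headers featureCounts 2.0.6 was the counter. The submitters' processing notes list Trim Galore, STAR and WBcel235. How strand, multi-mapping reads and mates were treated is not given in the sources used. Between 81.3% and 86.1% of counts from 5 to 39 in a library were even, as when mates are counted separately. Exon lengths (other values of the deposited table) gave the TPM computed here. RefSeq symbols matched 46925 of 46929 identifiers.

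The counts were tested in R 4.3.3 with edgeR 4.0.16 (filterByExpr, TMM, robust quasi-likelihood F test, all libraries in 1 fit, Benjamini-Hochberg over 15725 genes, threshold 0.05). DESeq2 1.42.0 was an alternative. Correlations used 100000 permutations, or all pairings for sets under 10, each without regard to group. The procedure was tested on simulated data. No libraries of a group were alike within sampling noise (lowest chi-square per degree of freedom 3.89 over 30 pairs, on halved counts). The bound for 0 counts covers counting error only; the 95% intervals come from the fit and include the spread between libraries. The members and lists were chosen with earlier results of these data known. Named genes were the members, F21A3.11, up to 4 genes per list by p, and the 3 genes most correlated with the most abundant and the called members. The planned search for relatives by protein sequence was not run.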

Additional observations from a re-analysis of the deposited data

Results flagged for a closer look

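For 3 genes the effects of the constructs against wild type differed by the test of the difference itself, which is the comparison of ACP7 OE with ACP7-7A OE: pho-11 by a log2 fold change of -0.50, pho-14 by -0.49 and pho-13 by 0.47 (edgeR adjusted p = 9.2e-06, 9.1e-05 and 0.013). The constructs also differed in the level of F21A3.11, and strain and construct cannot be told apart.

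Of 30 sets of 5 libraries, a single library stood far from the others in 2, and chance gives about 1 in 20. ACP7-7A OE library 1 had 153.4 CPM of pho-11, with the nearest library at 166.3 CPM. ACP7-7A OE library 3 had 46.83 CPM of pho-14, with the nearest at 53.53 CPM.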

How the results depend on the processing

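Of 774 values of single genes under an alternative, 719 kept their direction and side of the threshold, 7 lost the call, 12 gained it and 36 changed sign. pho-11 in both comparisons of ACP7 OE, and pho-14 between the constructs, kept their calls throughout. The number of the 10 genes that passed in ACP7 OE against wild type (1) became 2 without ACP7-7A OE libraries 1 and 2, and 2 when wild-type library 5 was also left out; it was 1 to 2 with single libraries left out. In ACP7-7A OE against wild type (1) it became 2 with DESeq2, 2 without a filter on low counts, 0 without ACP7-7A OE libraries 1 and 2, and 2 with scaling to intestine markers; it was 0 to 3 with single libraries left out. Between the constructs (3) it became 5 with scaling to intestine markers, which added pho-5, pho-9 and pho-12 as lower and dropped pho-13, and it was 2 to 3 with single libraries left out. Why these counts moved was not tested.

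Replicate numbers are shared by the groups, but deviations of same-numbered libraries correlated only by -0.15 to 0.12, and 2 of 15 pairs correlated best with their own number, so the numbers do not pair the libraries. With the number as a replicate block, the same counts of 1, 1 and 3 members passed, pho-9 between the constructs turned to -0.01, and the count over all genes went to 289, 633 and 1035, against 422, 1079 and 1346. That count was 256 to 794, 402 to 2248 and 883 to 1901 with single libraries left out; 764, 1750 and 1842 with DESeq2; 1182, 768 and 1100 with the 2 groups alone; and 264, 1233 and 1324 with a filter of 50 counts in 5 libraries. Without ACP7-7A OE libraries 1 and 2 it was 1423, 958 and 1614, and 2434, 1747 and 2212 when wild-type library 5 was also left out. With scaling to intestine markers it was 580, 5108 and 7395.

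The changes of sign were all in values that had not passed. With single libraries left out, pho-1, pho-5, pho-9 and pho-12 in ACP7 OE against wild type ranged from -0.13 to 0.00, -0.03 to 0.06, -0.16 to 0.02 and -0.34 to 0.12, pho-6 in ACP7-7A OE against wild type from -0.98 to 0.01, and pho-7, pho-8 and pho-9 between the constructs from -0.06 to 0.25, -0.20 to 0.22 and -0.07 to 0.10. Without ACP7-7A OE libraries 1 and 2, pho-6 stood at 0.26 and pho-7 at 0.02 in ACP7-7A OE against wild type, and pho-7 at -0.26 between the constructs. When wild-type library 5 was also left out, pho-12 stood at 0.00 in ACP7 OE and pho-6 at 0.13 in ACP7-7A OE against wild type, and pho-7 at -0.26 between the constructs. With scaling to intestine markers, pho-5 stood at -0.06 in ACP7 OE against wild type, pho-1, pho-9 and pho-11 at 0.05, 0.20 and 0.20 in ACP7-7A OE against wild type, and pho-1, pho-7, pho-8 and pho-9 at -0.15, -0.27, -0.35 and -0.35 between the constructs, where pho-9 passed as lower (adjusted p = 0.034) but lay at the median of all genes, which that scaling shifted by -0.36. The filter of 50 counts left out pho-6 and pho-12. Halving all counts moved the edgeR adjusted p of pho-8 and pho-12 in ACP7 OE against wild type from 0.74 to 0.71 and from 0.94 to 0.92. Each count was divided with no sampling noise added, so this setting cannot show whether depth limits these genes.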

Other observations

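Among the 10 genes, pairs rose and fell together or in opposition over the 15 libraries. Of 45 pairs, 10 passed by Pearson's r and 2 of these also by Spearman's rho. Here too the permutations took no account of group, and the values of r with group means removed were not tested. pho-1 and pho-13 went together (r = 0.82, permutation p = 0.00029, adjusted p = 0.007; rho = 0.80, p = 0.00056, adjusted p = 0.025), also without the 2 libraries farthest from the median of pho-13 (r = 0.70) and with group means removed (r = 0.76). pho-5 and pho-7 went in opposition (r = -0.80, permutation p = 0.00036, adjusted p = 0.007; rho = -0.75, p = 0.0016, adjusted p = 0.036), with r = -0.58 without the 2 libraries farthest from the median of pho-7 and -0.80 with group means removed. pho-11 passed with no other member. pho-13 and pho-14 had r = -0.65 over all libraries (permutation p = 0.0087, adjusted p = 0.044; rho = -0.56, p = 0.032, adjusted p = 0.23), and 0.01 with group means removed, so that relation rests on the difference between the groups.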
